A study of Mus musculus with 16 samples.

Results

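Ribosome biogenesis and Myc-driven nucleolar genes were followed as a list of 49 symbols, each looked up in the annotation of the deposited bead array values, with the brightest probe standing for its gene. Of the 49 genes, 45 had a probe under their symbol, and 41 had a probe that lay above background on at least 4 of the 16 arrays and were tested among 11839 features in all. No probe carried the symbols Polr1b, Wdr43, Ddx10 or Noc2l, and these genes were not analysed here. Mycn, Dkc1, Bysl and Wdr12 lay near background on all 16 arrays. The arrays held RNA of hematopoietic stem cell (HSC) fractions sorted from bone marrow of C57Bl/6 mice, and each array pooled 2 mice. The 4 groups, with 4 independent arrays each, were CD70TG mice (IFNgamma-/-xCD70TG) and control mice (IFNgamma-/-), each in the fraction labelled CD34- (long-term HSC) and the fraction labelled CD34+ (short-term HSC). Both genotypes therefore lacked IFNgamma, and the labels give neither the age of the mice nor the promoter of the transgene. The sort protocol lists CD34-Flt3- for both fractions, against the stated design, so the fractions are named by their labels. Cd34 itself, the marker that names them, was at -0.17 ± 0.12 (adjusted p = 0.438) between CD34+ and CD34- arrays in control mice and at -0.09 ± 0.12 (adjusted p = 0.813) in CD70TG mice, and was not called in either.

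Ribosomes are built in the nucleolus. RNA polymerase I transcribes the ribosomal RNA precursor, small nucleolar RNPs modify it, and separate sets of assembly factors shape the small and the large subunit around it. MYC, a transcription factor that binds DNA as a dimer with MAX at the sequence CACGTG (an E-box), is known to raise many of these genes and the first enzymes of polyamine synthesis when cells grow and divide, and long-term HSC are known as a quiescent population with little protein synthesis.

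Values are the deposited log values. The sources used here do not state the base of the logarithm. If it is 2, a difference of 1 stands for a doubling. Array medians ran from 6.427 to 6.531, the background limit of an array lay between 6.30 and 6.51, and 50.1% to 57.5% of probes lay above it. Differences are given ± SE from limma, with n = 4 arrays per group, and a gene was called at a Benjamini-Hochberg adjusted p under 0.05 over all 11839 features. The number of arrays limits the precision, with a median SE of 0.14 over the members. In RNA of a sorted population, fewer cells of a type and less RNA per cell cannot be told apart.

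The members were higher in CD70TG arrays more often than lower, in small steps and not as a block. In the fraction labelled CD34-, 10 of the 41 tested members were higher and 1 was lower in CD70TG arrays, or 26.8%, beside 27.8% of all features called in that comparison. Of these 10, Nop16 had no control CD34- array above background. An unadjusted limma p under 0.05 was reached by 17 of the 41 (41.5%, beside 38.2% of all features). The median difference over the members was 0.16, beside 0.02 over all features, and 28 of the 41 differences were positive (68.3%, beside 54.0% of all features). In the fraction labelled CD34+, 6 members were higher and 0 lower, or 14.6%, beside 18.2% of all features called, and 13 of the 41 had an unadjusted limma p under 0.05 (31.7%, beside 32.0% of all features). The median difference there was 0.17, beside 0.02 over all features, and 31 of the 41 were positive (75.6%, beside 53.2%). A share of calls near that of all features is not a result about the members. Split by direction, 24.4% of the members were called higher and 2.44% lower in CD34- arrays, beside 16% and 11.8% of all features, and in CD34+ arrays 14.6% were called higher and 0.00% lower, beside 7.59% and 10.6%. Tested against a minimum fold of 1.2, 3 members (Ddx21, Noc4l and Rrs1) were called in CD34- arrays and 0 in CD34+ arrays, beside 9.13% and 4.6% of all features. Without control CD34+ replicate 4, 11 members were called in CD34+ arrays, 10 of them higher, beside 23.1% of all features.

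The genotype groups did not overlap at 11 members in CD34- arrays (26.8%, beside 23.1% of all features) and at 8 in CD34+ arrays (19.5%, beside 21.5%). Called in both fractions were Noc4l, Rrs1, Mrto4, Srm and Odc1, which are 45.5% of the 11 called in CD34- arrays and 83.3% of the 6 called in CD34+ arrays. Of all features called, 48.8% of those in CD34- arrays and 74.5% of those in CD34+ arrays were called in the same direction in both. The differences had the same sign in both fractions at 36 of the 41 members (87.8%, beside 78.1% of all features), 27 of them positive and 9 negative.

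**Figure D1:**
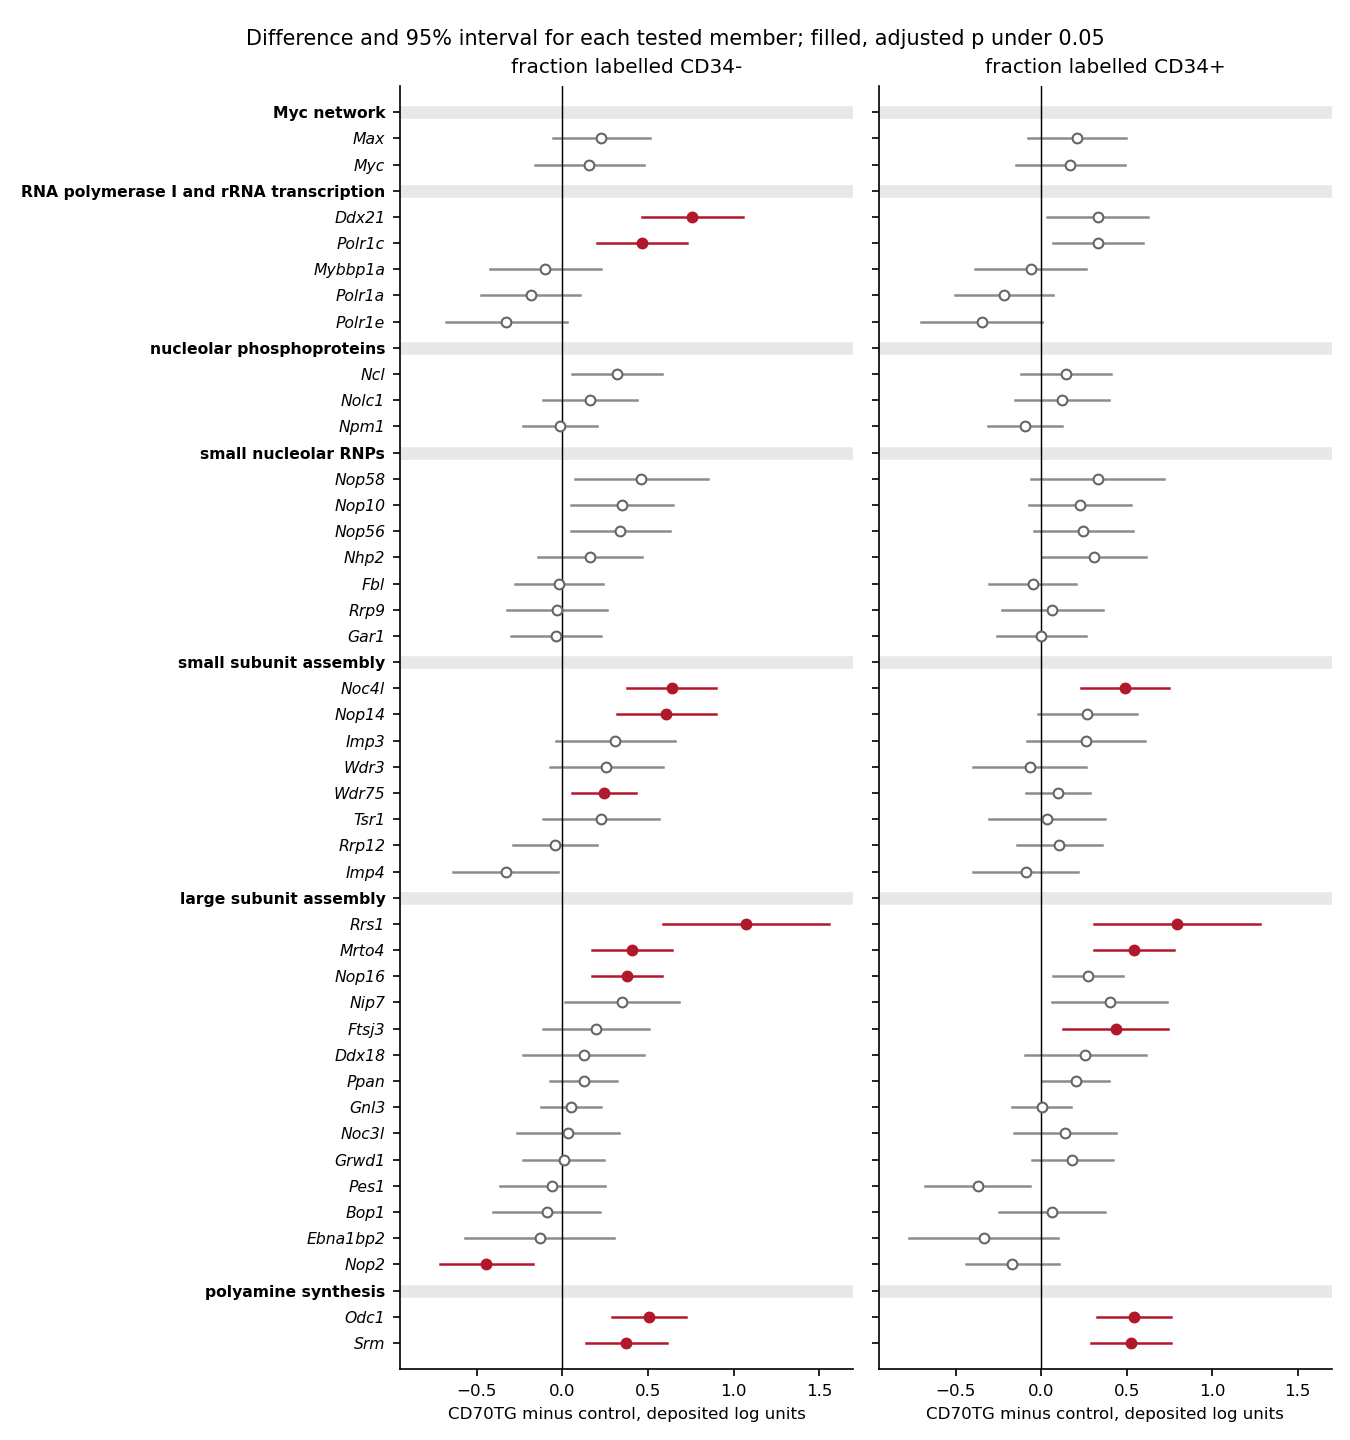
Difference between CD70TG and control arrays for each of the 41 tested members in deposited log units (horizontal axis), with its 95% interval, by role, in the fraction labelled CD34- (left) and CD34+ (right). Filled red points passed an adjusted p of 0.05: 11 members on the left, of which Nop2 alone lies below 0, and 6 on the right, all above 0.

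Neither Myc nor Max passed the test. Myc read 7.35, 6.32, 6.71 and 6.66 on the 4 CD70TG CD34- arrays, against 6.66, 6.63, 6.45 and 6.68 on the control CD34- arrays. The first of the CD70TG arrays was the highest of all 16 and the second the lowest, so the CD70TG values spanned those of the controls. The difference was 0.16 ± 0.15 (95% interval -0.16 to 0.47, adjusted p = 0.482) and was at -0.04, adjusted p = 0.839, without CD70TG CD34- replicate 1. In CD34+ arrays Myc read 7.06, 6.57, 7.0 and 6.79 in CD70TG mice and 6.78, 6.62, 6.65 and 6.71 in control mice, a difference of 0.17 ± 0.15 (adjusted p = 0.475) between groups that overlapped. These values lay close to background, and 15 of the 16 arrays were above it.

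Max, which encodes the dimer partner of MYC, was bright on all 16 arrays. It read 11.24, 11.16, 11.16 and 10.82 in CD70TG CD34- arrays and 11.14, 10.82, 10.86 and 10.64 in control CD34- arrays, and 11.38, 11.14, 10.95 and 10.86 in CD70TG CD34+ arrays and 10.98, 10.81, 10.68 and 11.03 in control CD34+ arrays. The groups overlapped in both fractions, at differences of 0.23 ± 0.14 (adjusted p = 0.23) and 0.21 ± 0.14 (adjusted p = 0.309). Mycn, a relative of Myc, stayed at 5.99 ± 0.08 (SD, n = 4) in CD70TG CD34- arrays, 6.01 ± 0.05 in control CD34- arrays, 6.02 ± 0.06 in CD70TG CD34+ arrays and 6.03 ± 0.16 in control CD34+ arrays, with no array above background. Of 8 other tested genes of the network, 2 were higher and 1 was lower in CD70TG CD34- arrays. Mxi1, which encodes a MAX partner that opposes MYC, was at 1.10 ± 0.19 (adjusted p = 0.00035), Mxd3, of the same family, at 0.29 ± 0.08 (adjusted p = 0.01), and Zbtb17, whose product binds MYC, at -0.48 ± 0.13 (adjusted p = 0.00969). In CD34+ arrays 1 was higher, Mycl, another relative of Myc, at 0.44 ± 0.10 (adjusted p = 0.00464), and 1 lower, Zbtb17, at -0.39 ± 0.13 (adjusted p = 0.0407).

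Both polyamine genes of the list were higher in CD70TG arrays of both fractions. Odc1, which encodes ornithine decarboxylase, the first and rate-limiting enzyme of polyamine synthesis, read 13.54, 13.30, 13.44 and 13.45 in CD70TG CD34- arrays, against 12.83, 12.87, 12.96 and 13.06 in control CD34- arrays. In the CD34+ fraction it read 13.61, 13.34, 13.20 and 13.38 in CD70TG arrays, against 12.75, 13.00, 12.63 and 12.97 in control arrays. Every CD70TG array lay above every control array in both fractions. The differences were 0.51 ± 0.10 (adjusted p = 0.00137) and 0.54 ± 0.10 (adjusted p = 0.0011), and the call was kept without any 1 of the 16 arrays.

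Srm encodes spermidine synthase, the next step of the pathway. Its brightest probe read 11.18, 11.11, 11.04 and 10.98 in CD70TG CD34- arrays and 10.90, 10.51, 10.55 and 10.86 in control CD34- arrays, and 11.27, 11.24, 11.16 and 11.11 in CD70TG CD34+ arrays and 10.76, 10.68, 10.42 and 10.83 in control CD34+ arrays. The groups did not overlap in either fraction, at differences of 0.37 ± 0.11 (adjusted p = 0.0186) and 0.53 ± 0.11 (adjusted p = 0.00281). In CD34- arrays the call was lost without CD70TG CD34- replicate 1 (adjusted p = 0.0576) and without control CD34- replicate 2 (0.0598) or 3 (0.0567). Of 5 other tested polyamine genes, 0 were higher and 1 was lower in each fraction. That gene was Smox, which encodes spermine oxidase, at -0.59 ± 0.15 (adjusted p = 0.00778) in CD34- arrays and -0.72 ± 0.15 (adjusted p = 0.00275) in CD34+ arrays.

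The counts by role rest on few genes and are to be read against the shares of all features called, 27.8% in CD34- and 18.2% in CD34+ arrays. Among 5 tested members of RNA polymerase I and ribosomal RNA transcription, 2 were higher and 0 lower in CD70TG CD34- arrays, and 0 passed in CD34+ arrays. Ddx21, which encodes a nucleolar RNA helicase, read 11.82, 11.38, 11.70 and 11.65 in CD70TG CD34- arrays, against 10.72, 10.85, 11.22 and 10.72 in control CD34- arrays. All 4 CD70TG values lay above the controls, at a difference of 0.76 ± 0.14 (adjusted p = 0.000576). In CD34+ arrays Ddx21 read 11.56, 11.62, 11.41 and 11.69 in CD70TG mice and 11.13, 11.00, 11.22 and 11.61 in control mice, and control replicate 4 reached into the CD70TG range (0.33 ± 0.14, adjusted p = 0.11).

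Polr1c, which encodes a subunit shared by RNA polymerases I and III, read 11.53, 11.84, 11.56 and 11.51 in CD70TG CD34- arrays and 11.20, 11.07, 11.19 and 11.14 in control CD34- arrays. The groups lay apart by 0.46 ± 0.13 (adjusted p = 0.00955). In the CD34+ fraction it read 11.77, 11.79, 11.59 and 11.96 in CD70TG arrays and 11.24, 11.27, 11.44 and 11.84 in control arrays, where control replicate 4 was again the highest control (0.33 ± 0.13, adjusted p = 0.0745). Polr1a, which encodes the largest subunit of the polymerase, Polr1e and Mybbp1a did not pass, with differences of -0.19, -0.33 and -0.10 in CD34- arrays and -0.22, -0.35 and -0.06 in CD34+ arrays. By their brightest probes, subunits of the same polymerase stood on both sides of 0, but those below 0 were not called. In CD34- arrays the other probes of Polr1a were at 0.17 ± 0.19 and -0.10 ± 0.09, and those of Mybbp1a at 0.02 ± 0.09 and 0.13 ± 0.15. Of 4 other tested genes of this machinery, 0 passed in either fraction.

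**Figure D2:**
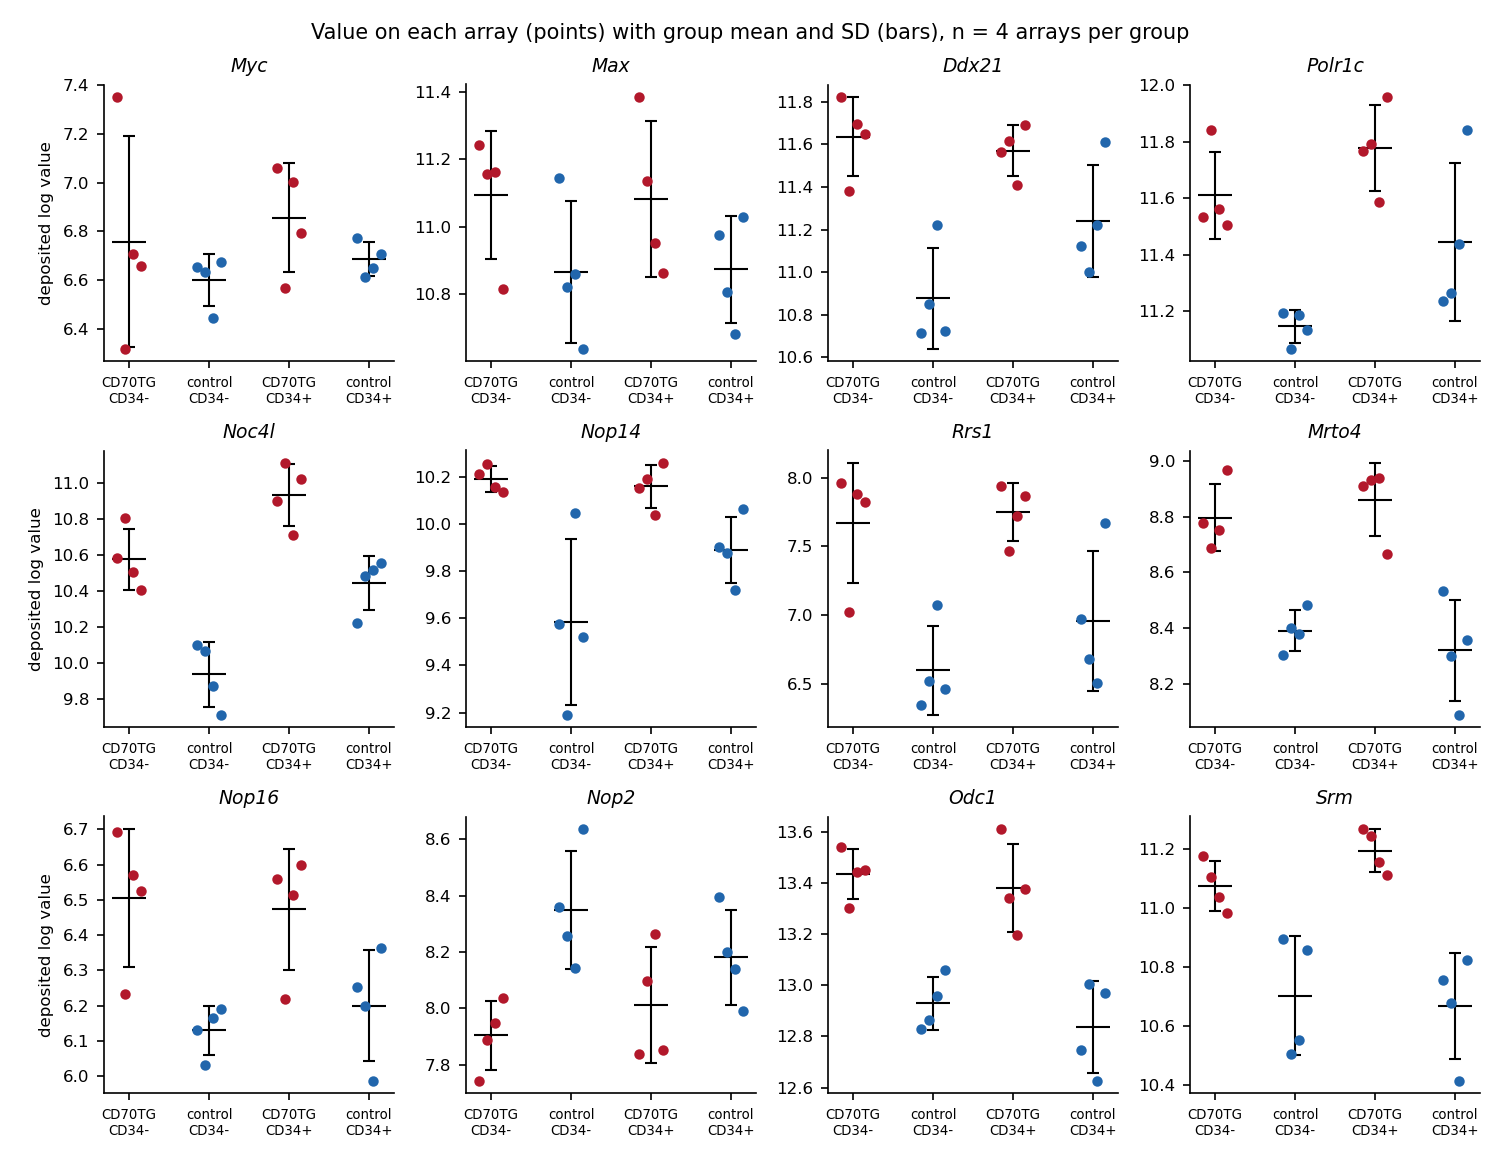
Deposited log value of 12 members on each array (points, vertical axes that differ between panels and do not start at 0), with the group mean and SD (bars, n = 4 arrays per group), CD70TG in red and control in blue. Odc1, Mrto4, Noc4l and Srm separate the genotypes in both fractions, Ddx21, Polr1c, Nop14 and Nop2 in the fraction labelled CD34- alone, and the groups of Myc and Max overlap.

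By their brightest probes, neither the nucleolar phosphoproteins nor the small nucleolar RNPs passed the test. A second probe of Ncl and of Nop10, given below, was called higher in CD34- arrays. Ncl, Npm1 and Nolc1, which encode nucleolin, nucleophosmin and a chaperone of small nucleolar RNPs, did not pass in either fraction (0 of 3). Ncl was at 0.32 ± 0.13 (adjusted p = 0.0675) in CD34- arrays, where the 4 CD70TG values of 12.31, 12.65, 12.26 and 12.19 all lay above the control values of 12.15, 12.06, 12.18 and 11.75. Npm1 was at -0.01 ± 0.10 (95% interval -0.23 to 0.20) in CD34- arrays and -0.09 ± 0.10 (95% interval -0.31 to 0.12) in CD34+ arrays. Of 7 tested members of the small nucleolar RNPs, 0 passed in either fraction. Among proteins of the box C/D particles, which methylate ribosomal RNA, Nop58 was at 0.46 ± 0.19 (adjusted p = 0.0717) and Nop56 at 0.34 ± 0.14 (adjusted p = 0.0751) in CD34- arrays, while Fbl, the methyltransferase of the same particle, was at -0.02 ± 0.12 (adjusted p = 0.923). Among proteins of the box H/ACA particles, which pseudouridylate ribosomal RNA, Nop10 was at 0.35 ± 0.14, Nhp2 at 0.16 ± 0.14 and Gar1 at -0.04 ± 0.13, with adjusted p of 0.0769, 0.44 and 0.853.

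In the assembly of the small subunit, 3 of 8 tested members were higher and 0 lower in CD70TG CD34- arrays, and 1 was higher in CD34+ arrays. Nop14 and Noc4l encode proteins that bind each other in the small subunit precursor, as known from yeast. Noc4l read 10.58, 10.80, 10.51 and 10.41 in CD70TG CD34- arrays, against 10.10, 10.06, 9.87 and 9.71 in control CD34- arrays. In the CD34+ fraction it read 10.90, 11.11, 10.71 and 11.02 in CD70TG arrays, against 10.22, 10.48, 10.52 and 10.56 in control arrays. The genotypes lay apart in both fractions, by 0.64 ± 0.12 (adjusted p = 0.000856) and 0.49 ± 0.12 (adjusted p = 0.00929).

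Nop14 read 10.21, 10.26, 10.16 and 10.14 in CD70TG CD34- arrays and 9.58, 9.19, 10.05 and 9.52 in control CD34- arrays. The CD70TG values lay close together and above all controls, of which replicate 3 came closest, at a difference of 0.61 ± 0.14 (adjusted p = 0.00291). In CD34+ arrays Nop14 was at 0.27 ± 0.14 (adjusted p = 0.186), with values of 10.15, 10.19, 10.04 and 10.26 in CD70TG mice and 9.90, 9.88, 9.72 and 10.06 in control mice that overlapped at a single control array. Wdr75, a factor of early small subunit assembly, read 12.04, 12.14, 12.10 and 11.99 in CD70TG CD34- arrays and 11.85, 11.88, 11.91 and 11.65 in control CD34- arrays. The groups did not overlap, but at 0.24 ± 0.09 (adjusted p = 0.0477) the call was lost without any 1 of 12 of the 16 arrays, at adjusted p of 0.052 to 0.149, and was kept without CD70TG CD34- replicate 4, control CD34- replicate 3, CD70TG CD34+ replicate 2 or control CD34+ replicate 4. Imp4, a protein of the small subunit precursor, had a negative difference by its brightest probe and did not pass (-0.33 ± 0.15, adjusted p = 0.0997). Its second probe was above 0 and not called, at 0.06 ± 0.11 in CD34- and 0.26 ± 0.11 in CD34+ arrays. Of 32 other tested factors of this subunit, 11 were higher and 1 was lower in CD34- arrays (37.5%, beside 27.8% of all features) and 8 were higher and 2 lower in CD34+ arrays (31.2%, beside 18.2%). They included Utp15, which acts with Wdr75 at the transcribed precursor (0.94 ± 0.15 in CD34-, adjusted p = 0.000113, and 0.54 ± 0.15 in CD34+, adjusted p = 0.0145), the methyltransferase gene Emg1 (0.72 ± 0.12 in CD34-, adjusted p = 0.000283), and Tbl3 (0.47 ± 0.11 in CD34-, adjusted p = 0.00311).

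In the assembly of the large subunit, 3 of 14 tested members were higher and 1 lower in CD70TG CD34- arrays (28.6%, beside 27.8% of all features), and 3 were higher and 0 lower in CD34+ arrays (21.4%, beside 18.2%). Mrto4, whose yeast relative holds the place of a stalk protein on the precursor, read 8.78, 8.69, 8.75 and 8.97 in CD70TG CD34- arrays, against 8.30, 8.40, 8.38 and 8.48 in control CD34- arrays. In the CD34+ fraction it read 8.91, 8.93, 8.94 and 8.67 in CD70TG arrays, against 8.53, 8.30, 8.09 and 8.36 in control arrays. No CD70TG array reached down to a control in either fraction. The differences were 0.41 ± 0.11 (adjusted p = 0.0102) and 0.54 ± 0.11 (adjusted p = 0.00198), kept without any 1 of the 16 arrays.

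Rrs1, which helps to place an RNA particle in the large subunit, gave the largest difference of the list. The probe discordance index is an array's place on the main axis of the gaps between probes of 1 gene. With this index as a covariate, however, Rrs1 changed sign (-0.25 in CD34- and -0.14 in CD34+ arrays, neither called). It read 7.96, 7.02, 7.88 and 7.82 in CD70TG CD34- arrays and 6.34, 6.52, 7.07 and 6.46 in control CD34- arrays, and 7.94, 7.46, 7.72 and 7.87 in CD70TG CD34+ arrays and 6.97, 6.68, 6.50 and 7.67 in control CD34+ arrays. The groups overlapped in both fractions, through the second CD70TG CD34- array, the third control CD34- array and the fourth control CD34+ array. The differences were 1.07 ± 0.23 (adjusted p = 0.00199) and 0.79 ± 0.23 (adjusted p = 0.0223), and 3 of the 4 control CD34- arrays were above background. In CD34+ arrays the call was lost without CD70TG CD34+ replicate 1 (adjusted p = 0.0724) or 4 (0.0619) and without control CD34+ replicate 2 (0.0754) or 3 (0.0868).

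Nop16, a large subunit factor, was measured on 3 of the 4 CD70TG CD34- arrays and on 0 of the 4 control CD34- arrays, so its level in the controls is only a bound. It read 6.69, 6.23, 6.57 and 6.53 in CD70TG CD34- arrays and 6.13, 6.03, 6.17 and 6.19 in control CD34- arrays. With the control arrays set at their background limit, the means differed by 0.09. The CD70TG mean includes replicate 2, itself below background at 6.23, so 0.09 is not a lower bound. The adjusted p of the fit, 0.0076, rests on control values below background. Nop16 passed the filter on dim probes mainly through CD70TG arrays, 6 of the 7 above background. In the CD34+ fraction it was above background on 3 CD70TG arrays and 1 control array (0.27 ± 0.10, adjusted p = 0.061). Ftsj3, whose yeast relative is a methyltransferase of the large subunit, was called in CD34+ arrays alone (0.43 ± 0.15, adjusted p = 0.0475), with overlapping groups, and the call was lost without any 1 of 10 of the 16 arrays, at adjusted p of 0.0525 to 0.148.

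Nop2, which encodes a ribosomal RNA methyltransferase of the large subunit, was the 1 member that fell. It read 7.74, 7.89, 7.95 and 8.04 in CD70TG CD34- arrays, against 8.36, 8.26, 8.14 and 8.64 in control CD34- arrays. All CD70TG values lay below all controls, at -0.45 ± 0.13 (adjusted p = 0.0151), and the call was lost without CD70TG CD34- replicate 1 (adjusted p = 0.054) or control CD34- replicate 4 (0.0597). In CD34+ arrays Nop2 read 7.84, 8.10, 8.27 and 7.85 in CD70TG mice and 8.40, 8.20, 8.14 and 7.99 in control mice, with overlap (-0.17 ± 0.13, adjusted p = 0.4). Pes1 and Bop1, which act in 1 complex, did not pass, at -0.06 ± 0.15 and -0.09 ± 0.15 in CD34- arrays, and Pes1 was at -0.37 ± 0.15 (adjusted p = 0.0855) in CD34+ arrays, where its groups did not overlap. Gnl3, which encodes nucleostemin, was at 0.05 ± 0.08 (95% interval -0.12 to 0.22) in CD34- arrays and 0.00 ± 0.08 (-0.17 to 0.18) in CD34+ arrays. Of 34 other tested large subunit factors, 8 were higher and 3 lower in CD34- arrays (32.4%, beside 27.8% of all features) and 5 were higher and 1 lower in CD34+ arrays (17.6%, beside 18.2%). They included Rpf2, the partner of Rrs1 (0.79 ± 0.14 in CD34-, adjusted p = 0.000383, and 0.51 ± 0.14 in CD34+, adjusted p = 0.0152), Lyar (0.62 ± 0.12 in CD34-, adjusted p = 0.000993) and, on the lower side, Ddx54 (-0.65 ± 0.15 in CD34-, adjusted p = 0.00317).

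Few members passed the test between the fractions. In control mice 1 of the 41 was called, higher in the CD34+ fraction, or 2.44%, beside 8.31% of all features (3.99% higher and 4.32% lower). That member was Noc4l, at 0.51 ± 0.12 (adjusted p = 0.015), with every CD34+ control array above every CD34- control array. The groups did not overlap at 2 members in all, beside 12.1% of all features. The call on Noc4l was lost without control CD34- replicate 4 (0.43, adjusted p = 0.0567). Without control CD34- replicate 3 there were 3 calls, beside 9.90% of all features. In CD70TG mice 0 of 41 members passed, beside 5.99% of all features (1.60% higher and 4.39% lower), and the groups did not overlap at 1 member, beside 12.2%. Of the 41, 3 had an unadjusted limma p under 0.05 (7.32%, beside 15.6% of all features), and Noc4l was at 0.36 ± 0.12 (adjusted p = 0.111) there. These comparisons share their arrays with those between genotypes. Over the 41 members the differences between fractions had a median of 0.03 in control mice and 0.01 in CD70TG mice.

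Whether the genotype difference itself depended on the fraction was tested as an interaction, CD34+ minus CD34-. It passed at 0 of 41 members, beside 0.355% of all features (0.0422% with a positive and 0.313% with a negative interaction). An unadjusted limma p under 0.05 was reached by 1 of the 41 (2.44%, beside 7.32% of all features). That was Ddx21, at -0.43 ± 0.20 (adjusted p = 0.651). Members called in a single fraction, such as Nop14 (-0.34 ± 0.19), Nop2 (0.28 ± 0.18) and Ftsj3 (0.24 ± 0.21), are therefore not shown to differ between fractions, and their intervals of -0.75 to 0.07, -0.11 to 0.66 and -0.20 to 0.68 do not show that the effects were alike.

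Probes of 1 gene disagreed at members that carry the result. The second probe of Noc4l was not called, at -0.26 ± 0.11 (adjusted p = 0.1 over all 15538 probes) in CD34- arrays and at -0.09 ± 0.11 in CD34+ arrays, where the brightest probe was called higher in both. Of the other probes of Srm, 1 was at 0.03 ± 0.13 and the dimmest was called lower, at -0.27 ± 0.09 (adjusted p = 0.0313), in CD34- arrays, against the brightest probe. In CD34+ arrays these probes were at 0.18 ± 0.13 and 0.15 ± 0.09. For Nop2, a second probe was also lower, at -0.40 ± 0.12 (adjusted p = 0.0199), and the dimmest was at 0.17 ± 0.10. Chosen after their values were seen, Ncl and Nop10 each had a second probe that was called higher in CD34- arrays, at 0.55 ± 0.14 (adjusted p = 0.00716) and 0.28 ± 0.10 (adjusted p = 0.0388), where the brightest was not called. The second probe of Wdr75 was at 0.14 ± 0.13 (adjusted p = 0.439) in CD34- arrays. Over all 15538 probes its brightest probe was itself not called there (adjusted p = 0.0513). Odc1, Mrto4, Rrs1, Ddx21, Polr1c, Nop14, Nop16 and Ftsj3 had a single probe and no such check.

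**Figure D3:**
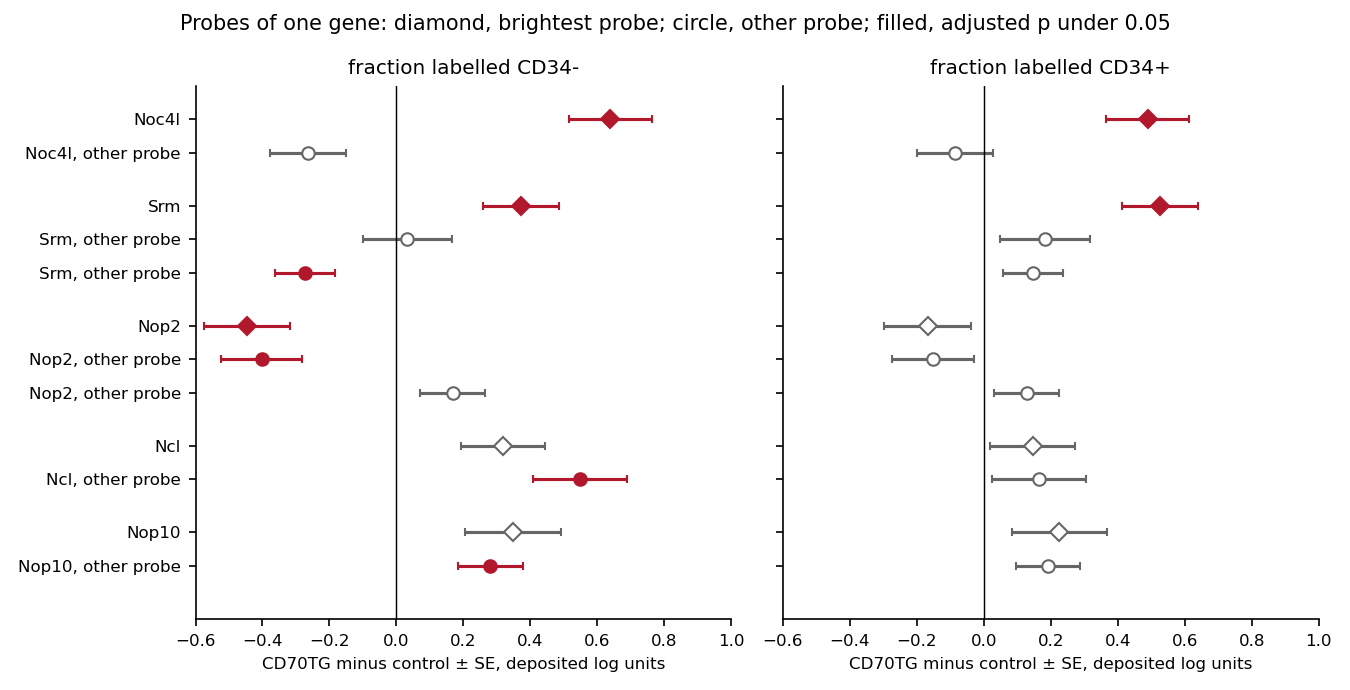
Difference between CD70TG and control arrays ± SE in deposited log units (horizontal axis) for each probe of 5 members above background, in the fraction labelled CD34- (left) and CD34+ (right). The brightest probe (diamond) and a dimmer probe (circle) stand on opposite sides of 0 for Noc4l and Nop2 in both fractions and for Srm in CD34- arrays.

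How far apart 2 probes for the same gene read was not constant over the arrays. Over 1845 genes with exactly 2 probes above background, 7 of them members, a single axis carried 52.0% of the variance in these gaps. An array's place on that axis is called the probe discordance index here, and it lay at 0.702 ± 0.641 (SD, n = 4) in CD70TG CD34- arrays and -1.18 ± 0.341 in control CD34- arrays, and at 0.900 ± 0.392 in CD70TG CD34+ arrays and -0.420 ± 0.696 in control CD34+ arrays. The second CD70TG CD34- array, at -0.225, and the fourth control CD34+ array, at 0.573, stood apart from their groups on it. The sign of the index was set by the first axis of all tested features, which carried 50.6% of their variance. On that axis the same arrays stood apart too, at 0.67 and 5.48. In CD34- arrays the genotypes did not overlap on the index, with the highest control at -0.681. A fit with the index therefore also takes up part of any genotype difference, and the 2 cannot be told apart here. With the index as a covariate, 2 members were called in each fraction, Noc4l (0.82, adjusted p = 0.0207, in CD34- and 0.62, adjusted p = 0.0242, in CD34+ arrays) and Gar1 (0.53, adjusted p = 0.0291, and 0.40, adjusted p = 0.0338), beside 5.62% and 7.91% of all features. Gar1 had been at -0.04 and 0.00 without it.

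The other calls were lost with the index in the fit, which also takes up part of any genotype difference. Odc1 was then at 0.25 (adjusted p = 0.465) in CD34- and 0.36 (adjusted p = 0.104) in CD34+ arrays, Mrto4 at 0.31 (0.429) and 0.48 (0.0662), and Srm at 0.29 (0.482) and 0.47 (0.0757). In CD34- arrays Ddx21 was at 0.18, Nop14 at 0.33, Polr1c at 0.31, Wdr75 at 0.12 and Nop2 at -0.19, with adjusted p from 0.485 to 0.765, and in CD34+ arrays Ftsj3 was at 0.26 (adjusted p = 0.537). Rrs1 changed sign, to -0.25 and -0.14, as did Nop16 in CD34- arrays (-0.09) and Myc (-0.29 and -0.14). The mean difference over the 41 members stayed positive, at 0.20 in CD34- and 0.16 in CD34+ arrays with the index, beside 0.18 and 0.15 without it, while the median SE of a member was 0.21 and 0.17 with it, beside 0.14.

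**Figure D4:**
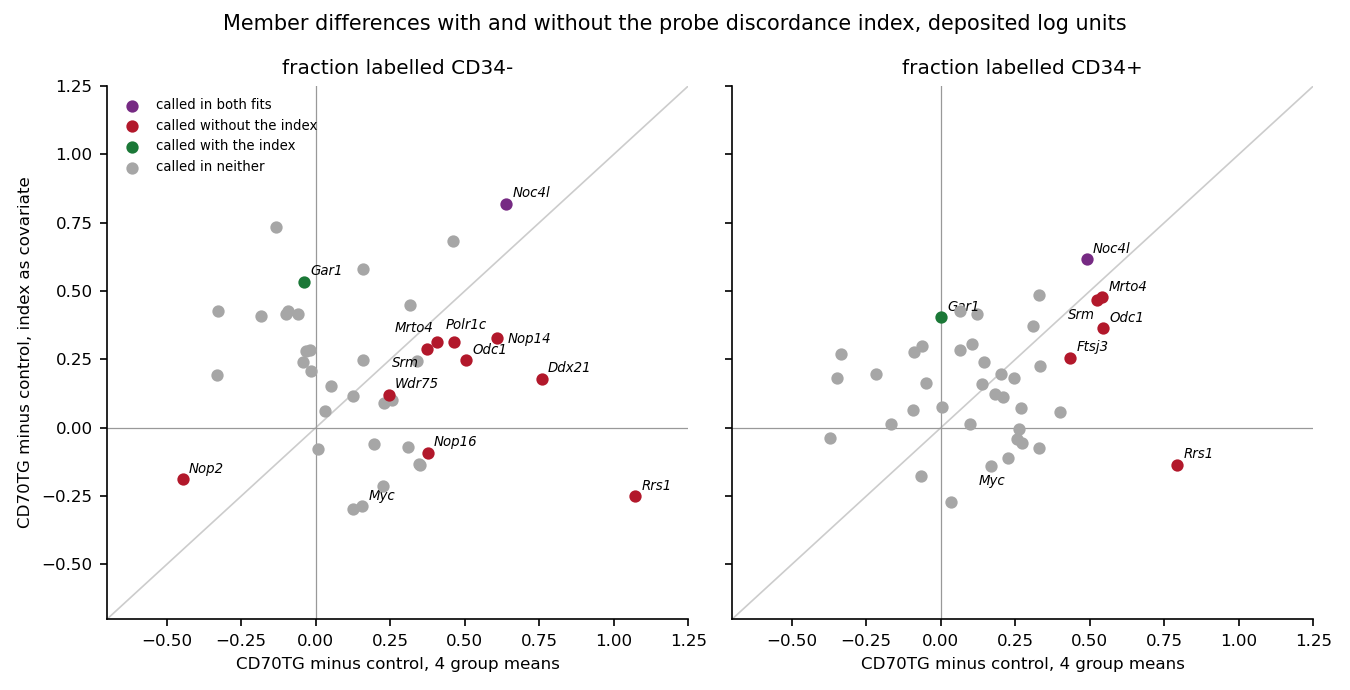
Difference between CD70TG and control arrays for each of the 41 members without (horizontal axis) and with (vertical axis) the probe discordance index as a covariate, in deposited log units, in the fraction labelled CD34- (left) and CD34+ (right), with the line of equal values in grey. Noc4l was called in both fits and Gar1 with the index alone, and Rrs1 lies above 0 without the index and below 0 with it.

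Some other gene groups moved with the genotype beside the members. The counts called are to be read against the shares of all features, 27.8% in CD34- and 18.2% in CD34+ arrays. All 15 tested G2 and M phase genes were higher in CD70TG CD34+ arrays and 14 of 15 in CD34- arrays, each time with a median difference of 1.41, where the members' medians were 0.16 in CD34- and 0.17 in CD34+ arrays. Their list level was 8.90 to 9.10 in CD70TG and 7.90 to 8.0 in control CD34- arrays, and 9.08 to 9.18 in CD70TG and 7.99 to 8.17 in control CD34+ arrays, with Bub1, Ccnb2, Cenpe and Kif20a near background. Stem cell markers were lower at 7 of 11 in each fraction. Their mean level over the list was 7.74 to 7.76 in CD70TG and 8.35 to 8.54 in control CD34- arrays, and 7.52 to 7.60 in CD70TG and 8.30 to 8.37 in control CD34+ arrays. Myeloid progenitor markers were higher at 6 of 7 in each fraction, with list levels of 10.83 to 11.29 in CD70TG and 8.95 to 9.49 in control CD34- arrays, and 10.68 to 11.23 in CD70TG and 9.16 to 9.41 in control CD34+ arrays. Macrophage markers were higher at 10 of 10 in CD34- arrays, at 8.81 to 9.17 in CD70TG and 7.54 to 7.74 in control arrays, with Cd5l near background on all arrays. In CD34+ arrays 2 of these 10 were higher and 1 was lower, at 6.92 to 7.16 in CD70TG and 6.88 to 6.98 in control arrays. Neutrophil markers were higher at 5 of 9 in CD34- arrays (10.71 to 11.69 in CD70TG, 10.39 to 10.97 in control) and 3 of 9 in CD34+ arrays (9.72 to 10.33 in CD70TG, 9.33 to 9.75 in control). Mast cell, basophil and eosinophil markers were higher at 6 of 7 in CD34- arrays (7.89 to 8.48 in CD70TG, 6.98 to 7.24 in control) and 4 of 7 in CD34+ arrays (8.01 to 8.27 in CD70TG, 7.44 to 7.53 in control), with Epx and Gzmb near background. Multipotent progenitor markers were higher at 2 of 5 and at 1 of 5. B cell markers were lower at 4 of 5 in CD34- and 2 of 5 in CD34+ arrays, with Ms4a1 and Pax5 near background. T or NK cell markers, with Cd3g and Cd8a near background, were higher at 1 of 6 in CD34- and lower at 1 of 6 in CD34+ arrays (16.7% each). Erythroid markers were lower at 1 of 6 in each fraction (16.7%, below the shares of all features). Megakaryocyte markers were higher at 1 and lower at 2 of 5 in CD34- arrays and lower at 4 of 5 in CD34+ arrays. The part of these cell types and of the cell cycle in the members' differences was not tested.

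Promoters of the members were read from RefSeq (GRCm38.p6), 250 bases before to 50 after the start site, for the letters CACGTG, which read the same on both strands. A promoter was held for 42 of the 49 genes and not for Myc, Srm, Rrs1, Fbl, Npm1, Bop1 and Rrp12. The motif stood in 8 of the 42 (19.0%), Max, Nop2, Pes1, Imp4, Grwd1, Mybbp1a, Tsr1 and Wdr43, beside 8.09% of the 27025 genes with a promoter of this length. Of the 10 members with a promoter that were called between genotypes in either fraction, 1 held it, Nop2, which was lower in CD70TG CD34- arrays. Of the 24 that were tested and not called, 6 held it. The 150 bases before the start site are given for Nop2 and Imp4, the members with the whole motif upstream of the start, at -60 to -55 and -121 to -116, with the motif in capitals, and for Odc1 and Mrto4, called in both fractions, whose stretches hold none.
Nop2, chr6:125131733-125131882, plus strand: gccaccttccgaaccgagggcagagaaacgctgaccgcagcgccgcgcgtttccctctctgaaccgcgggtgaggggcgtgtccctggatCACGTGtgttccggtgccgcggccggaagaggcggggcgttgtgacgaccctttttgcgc
Imp4, chr1:34439679-34439828, plus strand: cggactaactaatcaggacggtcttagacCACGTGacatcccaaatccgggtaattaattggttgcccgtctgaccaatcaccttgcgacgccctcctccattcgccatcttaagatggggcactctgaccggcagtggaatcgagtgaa
Odc1, chr12:17544723-17544872, plus strand: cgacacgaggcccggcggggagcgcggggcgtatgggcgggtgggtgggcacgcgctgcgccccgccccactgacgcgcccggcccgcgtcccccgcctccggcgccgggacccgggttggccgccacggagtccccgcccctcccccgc
Mrto4, chr4:139352577-139352726, minus strand: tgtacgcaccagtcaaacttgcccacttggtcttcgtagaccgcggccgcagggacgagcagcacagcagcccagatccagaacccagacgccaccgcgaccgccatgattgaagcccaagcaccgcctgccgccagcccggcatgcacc
A match is a description of these letters and shows no binding, and a stretch without it says nothing of MYC at that gene.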

How the data were processed

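Per the labels' protocols, RNA of sorted HSC fractions was amplified in repeated rounds and biotinylated for Illumina arrays. The deposited values, 25697 probes on 16 arrays, were taken as log2 values, although no source states the base, and their medians of 6.427 to 6.531 show a shared scale. No source used here says how the authors corrected background or normalized these values. A second table of 32 columns was not used, because its columns match no sample label, so the planned neqc correction was not run. Probes were named through gene IDs (23978 with 1 symbol, 0 with several, 1719 with none, 23962 matched by ID). A probe was kept when it exceeded the 95th percentile of its array's background on at least 4 of 16 arrays (15538 probes), and the brightest kept probe stood for a gene (11839 features, 10896 named). At most 0.288% of values were identical between any pair of arrays, and each array counted as 1 replicate. The limma fit (version 3.58.1, R 4.3.3) used 4 group means with 12 residual degrees of freedom, eBayes with a trend, and Benjamini-Hochberg adjustment over all features at 0.05. It was tested on simulated data with independent noise for each feature and array. Such data lack the axis that the real arrays share, so that test does not bear on calls along it.

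The members, lists and alternatives were chosen with earlier results of these data known. Arrays are given for up to 4 called members per role with the smallest p, for the Myc network and for members whose probes were called in opposite directions, and for context lists up to 3 called genes with the smallest p. Ncl, Npm1, Gnl3, Imp4, Pes1, Bop1, Ftsj3, Polr1a, Polr1e, Mybbp1a and the small nucleolar RNP members are named beyond that rule. Alternatives were other filters, probes, arrays in the fit, blocks, weights, scalings, a minimum fold of 1.2, the probe discordance index and leaving out each array.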

Additional observations from a re-analysis of the deposited data

Results flagged for a closer look

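Among 164 sets of 4 arrays (41 members in 4 groups), 5 held an array whose gap to its nearest neighbour was large for the range of the set by Dixon's test, and chance gives about 1 in 20. Ncl read 11.95 on CD70TG CD34+ replicate 3, below 12.27 to 12.31 on the other arrays of its group. Rrs1 read 7.02 on CD70TG CD34- replicate 2, below 7.82 to 7.96. On the same array Ddx18, an RNA helicase gene of large subunit assembly, read 10.29, below 10.93 to 11.00. Ppan, a large subunit factor, read 6.93 on control CD34+ replicate 2, below 7.22 to 7.28. Mrto4 read 8.67 on CD70TG CD34+ replicate 4, below 8.91 to 8.94, and still above the 4 control CD34+ arrays.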

How the results depend on the processing

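The count of members called between genotypes was 10 to 15 in CD34- and 5 to 7 in CD34+ arrays (main 11 and 6) under other filters, other blocks, quantile normalization, equal medians, no variance trend, only the arrays compared and, in CD34- arrays, array weights and the least bright probe. It was 2 in each fraction with the probe discordance index, 3 in CD34- and 0 in CD34+ arrays against a minimum fold of 1.2, 12 in CD34+ arrays with array weights, and 3 in CD34+ arrays with each gene's least bright probe. Between fractions it was 0 in control mice against the minimum fold (beside 1.78% of all features) and 2 in CD70TG mice with array weights (beside 12.0%). Leaving out each array gave 8 to 13 calls between genotypes in CD34- arrays, 4 to 11 in CD34+ arrays (11 without control CD34+ replicate 4), 0 to 3 between fractions in control mice (3 without control CD34- replicate 3, 0 without replicate 4), and 0 to 0 in CD70TG mice and for the interaction. Beside these counts, 21.3% to 30.0% of all features were called between genotypes in CD34- and 12.3% to 23.1% in CD34+ arrays. Between fractions the shares of all features were 5.25% to 9.90% in control and 4.52% to 6.27% in CD70TG mice. For the interaction they were 0.245% to 0.490%.

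Quantile normalization moved the members' mean difference to 0.11 in CD34- arrays, 0.057 between fractions in CD70TG mice, 0.009 between fractions in control mice (0.042 in the reported fit) and 0.048 for the interaction, whose sign turned from -0.028. It also turned the split of all called features in CD34- arrays to 1618 higher and 2000 lower, beside 1891 and 1396. Among called differences, the sign turned with the least bright probe for Noc4l (-0.26 in CD34-, -0.087 in CD34+ arrays, -0.0063 between fractions of control mice), Nop2 (0.17) and Srm (-0.27). Among members not called, it turned in CD34- arrays for Imp4 (0.06), Polr1a (0.17), Nhp2 (-0.17) and Mybbp1a (0.02). The counts of positive differences thus hold for the brightest probes. With the index the sign turned, among others, for Nop16 (-0.091), Rrs1 (-0.25 and -0.14) and Myc (-0.29 and -0.14). It also turned, to the positive side, for Gar1 in CD34- arrays. Leaving out each array gave Myc -0.041 (without CD70TG CD34- replicate 1) to 0.302 in CD34- arrays. The cause was not tested. Deviations of arrays with the same replicate number correlated at r of -0.33 to 0.65 (24 pairs, median 0.05), beside -0.61 to 0.55 (72 pairs, median -0.07) for other numbers. Between CD70TG CD34- and CD34+ arrays r was 0.44, 0.65, -0.03 and 0.16 for numbers 1 to 4. Between control CD34- and CD34+ arrays it was 0.06, 0.11, -0.31 and -0.08. Since not every pair exceeded 0.1, the numbers were not taken to pair the samples. This rule cannot exclude that fractions with the same number came from the same mice. The replicate number as a fixed block gave 11 and 7 calls (beside 28.6% and 20.3% of all features) and as a random block 11 and 6 (beside 28.7% and 19.1%). The interaction cannot be fitted from only the arrays of 1 fraction. With 4 arrays a group, differences under about 0.3 mostly did not pass, and members near background have compressed values.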
